A study of Mus musculus with 39 samples.

Results

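The genes described here are 10 members of the BCL2 family and the p53 response, taken by symbol from the 47643 genes listed in both count tables: the anti-apoptotic genes *Bcl2*, *Bcl2l1* and *Mcl1*, the pore-forming effectors *Bax* and *Bak1*, the BH3-only genes *Bcl2l11*, *Bbc3* and *Pmaip1*, and *Trp53* with its target *Cdkn1a*. The study asked how loss of *Stat3*, a transcription factor activated by cytokine signalling, changes the mouse epiblast, the tissue that gives rise to the embryo proper. Bulk RNA-seq was read in 35 libraries, each from 1 epiblast dissected from *Stat3* heterozygous inter-crosses on the CD1 background at E5.5 (4 null, 2 WT), E6.5 (8 null, 9 WT) and E7.5 (3 null, 9 WT), and in 4 libraries of epiblast stem cell (EpiSC) lines (null lines 2 and 6, WT lines 8 and 13). EpiSCs are cultured cells derived from such epiblasts and kept here in FGF2, Activin A and the tankyrase inhibitor XAV. The null allele replaces exons 20 to 22 of *Stat3* with a neomycin resistance gene in every cell of the embryo, so that RNA of the other exons can still be counted. Genotypes were read from extraembryonic tissue, and the extraembryonic ectoderm and visceral endoderm were taken off by hand. Each EpiSC library stands for 1 line, and the labels name no litter, so that p-values measure the spread between these libraries.

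Cells carry a standing balance between BCL2 family proteins. BCL2, BCL-XL (from *Bcl2l1*) and MCL1 hold back BAX and BAK, which otherwise open the outer mitochondrial membrane and set off caspases, while the BH3-only proteins BIM (from *Bcl2l11*), PUMA (from *Bbc3*) and NOXA (from *Pmaip1*) bind the anti-apoptotic proteins and release the effectors. p53 is stabilised by DNA damage and other stress and switches on genes of death (*Bbc3*, *Pmaip1*, *Bax*) and of cell-cycle arrest (*Cdkn1a*, a cyclin-dependent kinase inhibitor). The early postimplantation epiblast is known for its readiness to die after stress or in competition between neighbouring cells.

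To show the letters that p53 can bind at these genes, 300-base windows around RefSeq starts on GRCm38.p6 (250 bases before the start and 50 after) were searched on both strands. Of the 10 genes, 9 had a window and *Pmaip1* was not matched, which gave 15 windows with alternative starts counted. The p53 half-site stood in 3 of the 15 windows, those of *Bax*, *Trp53* and an upstream start of *Cdkn1a*, and in 8.36% of all 32851 windows. A full p53 response element, a pair of half-sites with at most 13 bases between them, stood in 0.0731% of all windows and, among the 15, in that of *Cdkn1a* alone. The letters TTCNNNGAA, to which STAT proteins bind, stood in 8.3% of all windows and in 0 of the 15. The 3 windows that hold a half-site follow, each 5′ to 3′ along its gene with the half-sites in capitals. The half-sites of *Cdkn1a* start 73 and 51 bases before the RefSeq start with 12 bases between them, that of *Bax* starts 201 bases before it and that of *Trp53* 75 bases before it. A match is a description of letters, and binding was not measured.
Cdkn1a, chr17:29090729-29091028, + strand: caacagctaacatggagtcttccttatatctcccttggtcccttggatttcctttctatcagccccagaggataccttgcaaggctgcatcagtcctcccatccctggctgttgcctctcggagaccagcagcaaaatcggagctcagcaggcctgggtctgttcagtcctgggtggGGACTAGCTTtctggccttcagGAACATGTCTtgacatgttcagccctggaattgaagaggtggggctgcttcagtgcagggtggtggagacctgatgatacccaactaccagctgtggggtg
Bax, chr7:45466849-45467148, - strand: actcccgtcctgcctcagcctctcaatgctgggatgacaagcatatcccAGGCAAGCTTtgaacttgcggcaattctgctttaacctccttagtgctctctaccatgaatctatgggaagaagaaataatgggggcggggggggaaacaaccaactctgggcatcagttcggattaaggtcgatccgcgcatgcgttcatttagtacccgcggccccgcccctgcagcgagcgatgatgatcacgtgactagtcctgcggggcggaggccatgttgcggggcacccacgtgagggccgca
Trp53, chr11:69580109-69580408, + strand: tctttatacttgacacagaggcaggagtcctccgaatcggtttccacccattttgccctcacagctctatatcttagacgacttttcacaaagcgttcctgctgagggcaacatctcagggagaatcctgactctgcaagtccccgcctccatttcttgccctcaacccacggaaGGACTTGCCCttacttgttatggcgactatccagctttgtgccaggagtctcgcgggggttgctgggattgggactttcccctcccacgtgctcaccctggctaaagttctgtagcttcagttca

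Levels are given as CPM (counts scaled to library size, here by the TMM method), and log2 fold changes (± SE) come from edgeR's quasi-likelihood test on the counts. A gene is said to have passed at a Benjamini-Hochberg adjusted p under 0.05 over all genes tested in that comparison. Libraries held 22941210 to 127583699 counts, and the 10 genes were tested in every comparison. The targeted gene was checked first. *Stat3* lay at 1.5, 1.29 and 1.22 CPM in the 3 E7.5 null epiblasts and between 4.63 and 24.3 CPM (median 11.4) in the 9 WT, without overlap (log2 fold change -3.31 ± 0.44, adjusted p = 0.00808). In EpiSCs it lay at 3.14 and 3.52 CPM in the null lines and 18.1 and 22.9 CPM in the WT lines (-2.62 ± 0.17, adjusted p = 0.00706). At E6.5 it lay between 1.43 and 8.1 CPM (median 3.96) in null and between 5.66 and 28.9 CPM (median 12.5) in WT, with overlap (-1.60 ± 0.39, adjusted p = 0.334), and at E5.5 at 9.33, 15.1, 22.7 and 20.4 CPM in null and 51.1 and 39.2 CPM in WT, without overlap (-1.41 ± 0.36, adjusted p = 0.999).

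Several libraries stand apart. E5.5 null 1 held 0.662 CPM of the epiblast gene *Pou5f1*, against 99.3 to 292 CPM in the other 5 E5.5 libraries, and 4 of its 10 epiblast markers were listed at 0. It held 628 CPM over 8 extraembryonic ectoderm markers, against 33.1 to 221 CPM in those 5. Over 12 visceral endoderm markers it held 652 CPM, against 5740 to 11563 CPM. E6.5 null 1 held 502 CPM over 8 extraembryonic ectoderm markers, against at most 24.7 CPM in the other E6.5 libraries. E7.5 WT 3 held 6246 CPM over 10 epiblast markers, against 1108 to 3042 CPM in the other 8 E7.5 WT libraries, 4553 to 6308 CPM in E7.5 null and 4907 to 7832 CPM in E6.5 WT. At E6.5, null 1 to 3 and WT 1 to 3 held over 40000000 counts and the others fewer. The counting could also list a gene at 0 in a deeply sequenced library: of 12379 genes with a mean count over 100 in E6.5 null, 31 to 742 per library were listed at 0. Among the 10 genes, *Bcl2* and *Cdkn1a* were each listed at 0 in 3 epiblast libraries and *Bbc3* in 2. As these are bulk samples, fewer cells of a type and less RNA per cell cannot be told apart.

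Set on one scale per length (CPM per kb of exon), *Mcl1* and *Trp53* had the highest median of the 10 genes in all 6 epiblast groups. In E6.5 WT epiblasts *Mcl1* lay at 41.7 to 71.9 CPM per kb and *Trp53* at 31.5 to 42.3, so that these neighbours overlapped. Below them, with overlapping ranges, came *Pmaip1* at 17.7 to 49.6 and *Bax* at 25.5 to 33.2 CPM per kb. *Bak1* at 14.4 to 25 lay under *Bax* without overlap. *Bcl2l11* at 6.96 to 10.1 and *Bcl2l1* at 6.06 to 10 overlapped with each other, and *Bbc3* lay under both at 2.02 to 4.21. *Cdkn1a*, at up to 3.71 CPM per kb, and *Bcl2*, at up to 0.4, were lowest, and *Cdkn1a* overlapped with *Bbc3*. *Mcl1* was thus the highest of the 3 anti-apoptotic genes by median in each of the 8 groups, and *Bcl2* the lowest. In E7.5 WT, *Bcl2l1* at 8.71 to 16.2 CPM per kb lay above *Bcl2l11* at 4.25 to 7.26 without overlap.

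In EpiSC lines the order differed. *Trp53* was highest, at 59.3 to 67.8 CPM per kb in null and 64.9 to 74.9 in WT. *Cdkn1a* stood beside *Mcl1*, at 40.3 to 51.6 against 49.7 to 53.6 CPM per kb in null and 54.3 to 65.9 against 53.6 to 60.6 in WT, with overlap in both genotypes. *Pmaip1* was lowest, at 0.25 and 0.893 CPM in the null lines and 1.29 and 0.0467 CPM in the WT lines. In plain CPM, *Cdkn1a* lay at 183 and 143 in the null and 193 and 234 in the WT lines, against at most 14 CPM in any epiblast. EpiSC and epiblast libraries were made with different kits and scaled in separate tables, so the kit and the cells cannot be told apart, and this gap was not tested.

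**Figure D1:**
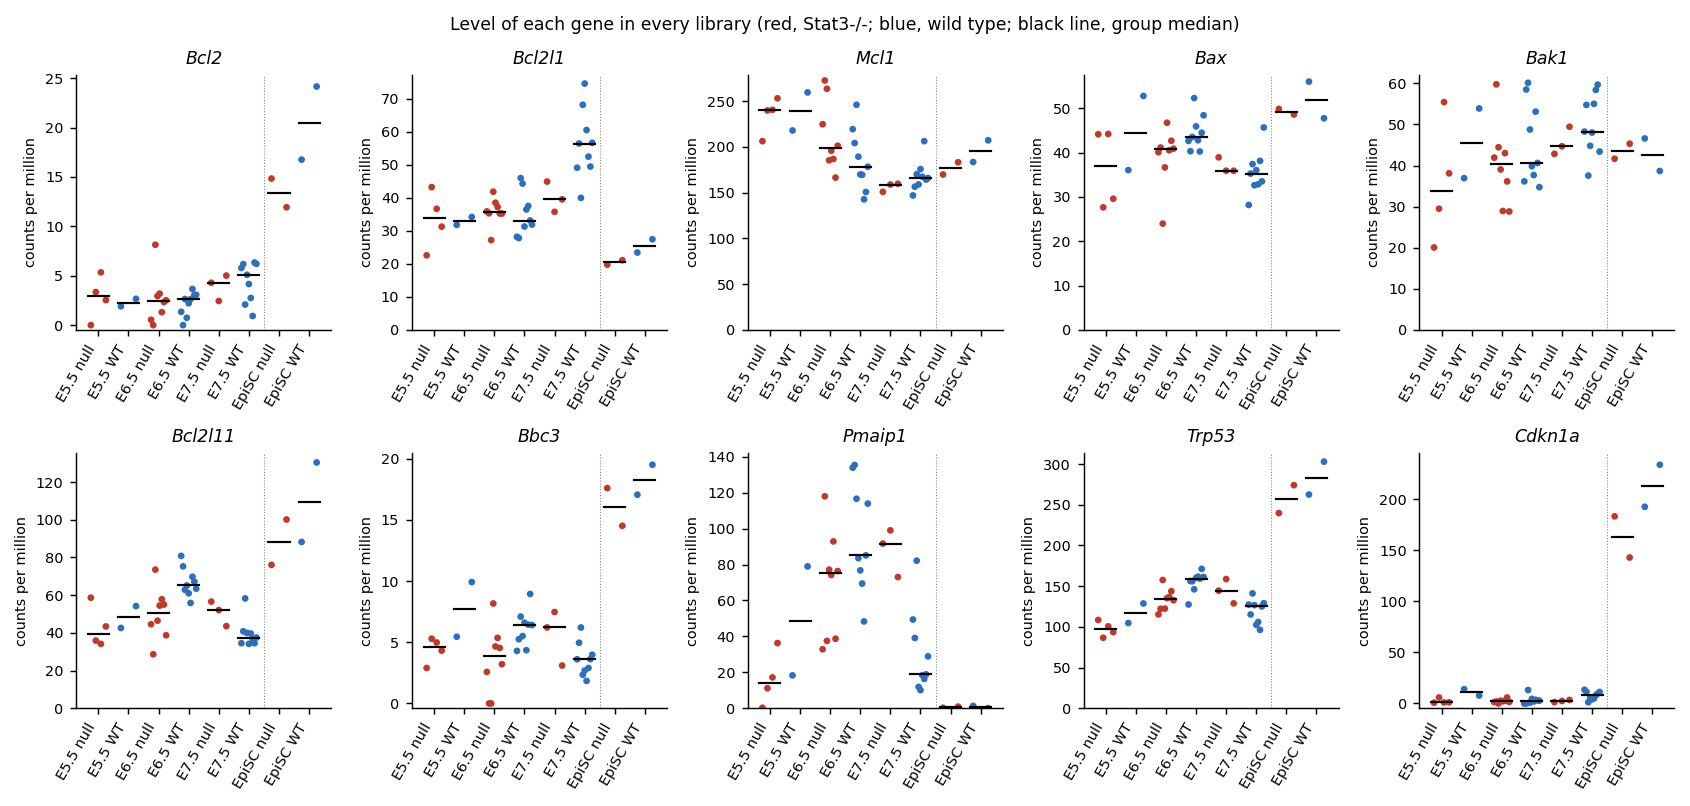
Level of each of the 10 genes (y axis, CPM, linear, each panel with its own range) in every library of the 8 groups (x axis). Points are libraries, red for *Stat3* null and blue for WT, black lines are group medians, and the dotted line parts epiblasts from EpiSC lines. In E7.5 WT epiblasts *Bcl2l1* stands higher and *Bcl2l11* and *Pmaip1* stand lower than at E6.5, with 1 library apart.

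Between E6.5 and E7.5, as WT epiblasts gastrulate, 1 of the 10 genes rose (*Bcl2l1*) and 5 fell (*Bcl2l11*, *Pmaip1*, *Bbc3*, *Bax* and *Trp53*). Of all 17191 genes tested, 24.9% passed, 12.7% higher and 12.3% lower, and the median log2 fold change was -0.22 over the 10 genes and 0.01 over all genes. *Bcl2l1*, which encodes the anti-apoptotic BCL-XL, lay between 27.8 and 45.9 CPM (median 33.1) at E6.5 and between 39.9 and 74.5 CPM (median 56.4) at E7.5. Of the 9 E7.5 libraries, 8 lay above every E6.5 library, and WT 3 lay among the E6.5 values. It rose 1.61-fold (log2 fold change 0.69 ± 0.12, adjusted p = 0.000357). The other anti-apoptotic genes did not pass. *Mcl1* lay between 143 and 246 CPM (median 178) and then between 147 and 206 CPM (median 166) (-0.13 ± 0.09, adjusted p = 0.311), and *Bcl2* between 0 and 3.66 CPM (median 2.63) and then between 0.929 and 6.34 CPM (median 5.1) (1.03 ± 0.57, adjusted p = 0.206).

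Of the effectors, *Bax* lay between 40.2 and 52.3 CPM (median 43.5) at E6.5 and between 28.2 and 45.7 CPM (median 35.3) at E7.5. In 8 of 9 E7.5 libraries it was below every E6.5 library, WT 9 at 45.7 CPM being the exception (-0.32 ± 0.09, adjusted p = 0.00912). *Bak1* lay between 34.7 and 60.1 CPM (median 40.6) and then between 37.6 and 59.7 CPM (median 48.3), with overlap, and did not pass (0.15 ± 0.12, adjusted p = 0.423).

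All 3 BH3-only genes fell. *Bcl2l11*, whose product BIM binds all the anti-apoptotic proteins, lay between 55.9 and 80.9 CPM (median 65.1) at E6.5 and between 34.1 and 58.3 CPM (median 37.5) at E7.5. All E7.5 libraries but WT 3, at 58.3 CPM, lay below every E6.5 library (-0.75 ± 0.10, adjusted p = 2.33e-05). *Pmaip1*, whose product NOXA binds MCL1, lay between 48.3 and 135 CPM (median 85.1) at E6.5 and between 10.1 and 82.2 CPM (median 18.9) at E7.5. It was below every E6.5 library in 7 of 9 E7.5 libraries, the others being WT 1 at 49.4 and WT 3 at 82.2 CPM, and its fall was the largest of the 10 genes (-1.64 ± 0.36, adjusted p = 0.00294). It was the only one of them to pass with the study's further limit of a log2 fold change over 1 in size. *Bbc3*, which encodes the p53 target PUMA, lay between 4.29 and 8.94 CPM (median 6.4) and then between 1.84 and 6.2 CPM (median 3.61), with overlap (-0.76 ± 0.24, adjusted p = 0.0239). Without E6.5 WT 8, which held the highest value, its adjusted p was 0.0509, and in a fit over all 35 epiblast libraries *Bbc3* (adjusted p = 0.456) and *Bax* (adjusted p = 0.069) did not pass.

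*Trp53* itself lay between 128 and 171 CPM (median 159) at E6.5 and between 96.2 and 141 CPM (median 125) at E7.5. In 8 of 9 E6.5 libraries it was above every E7.5 library (-0.38 ± 0.07, adjusted p = 0.000763). Its target *Cdkn1a* lay between 0 and 13.2 CPM (median 2.71) and then between 1.18 and 13.4 CPM (median 7.99), with overlap, and did not pass (1.23 ± 0.82, adjusted p = 0.3). At E6.5 it was listed at 0 in WT 1 and WT 2, while WT 3 held 13.2 CPM. Without the E6.5 libraries over 40000000 counts, a setting chosen after seeing the data, the difference was 1.48 ± 0.44 (adjusted p = 0.0161). These WT libraries also moved in their markers: 9 of 10 epiblast markers fell, and the sum over 12 visceral endoderm markers ran from 52.4 to 5804 CPM at E6.5, the highest in WT 3, and from 396 to 4135 CPM at E7.5. Their part in these results was not tested.

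Of 86 further genes of these pathways, 76 were tested in this comparison, and 8 rose and 12 fell, which is 26.3% against the 24.9% of all genes that passed. Of 28 other p53 target genes, 0 rose and 8 fell (median log2 fold change -0.12). Of 10 p53 regulators 1 rose and 3 fell (median -0.10), of 11 other BCL2 family genes 2 rose (median 0.07), of 22 caspases, apoptosome genes and inhibitors 3 rose and 1 fell (median 0.03), and of 5 other CDK inhibitors 2 rose (median 0.42). The median over all genes was 0.01. Among those that rose were *Casp8*, the initiator caspase of death receptors (1.56 ± 0.21, adjusted p = 3.14e-05), the imprinted CDK inhibitor *Cdkn1c* (2.2 ± 0.38, adjusted p = 0.000411) and *Trp53bp1*, a DNA repair factor (0.41 ± 0.08, adjusted p = 0.00115). Among those that fell were *Usp7*, which removes ubiquitin from p53 and MDM2 (-0.39 ± 0.06, adjusted p = 9.45e-05), *Pidd1*, a death-domain gene induced by p53 (-0.85 ± 0.14, adjusted p = 0.000189), and *Sfn*, a cell-cycle checkpoint gene (-2.07 ± 0.37, adjusted p = 0.000407).

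The same step was read in *Stat3* null epiblasts, from 8 libraries at E6.5 to 3 at E7.5. It gave 0 passes among the 10 genes in edgeR, DESeq2 and limma voom with sample quality weights. In edgeR 0.149% of all genes passed, and the shares for DESeq2 and voom are not given here. In edgeR 1 of the 10 genes had an unadjusted p under 0.05. That gene was *Mcl1*, at between 166 and 272 CPM (median 198) and then 151, 159 and 159.6 CPM (-0.44 ± 0.15, adjusted p = 0.403 by edgeR). Its E6.5 values split with depth, at 225 to 272 CPM in the 3 libraries over 40000000 counts and 166 to 201 CPM in the other 5. Over the alternatives its log2 fold change ran from -0.69 to -0.26, with 0 passes. *Bcl2l1* lay between 27.2 and 41.8 CPM (median 35.6) and then at 44.9, 35.7 and 39.5 CPM (0.16 ± 0.16). *Bcl2l11* lay between 28.6 and 73.6 CPM (median 50.5) and then at 56.6, 52.1 and 43.6 CPM (0.03 ± 0.23). *Pmaip1* lay between 32.8 and 118 CPM (median 75.3) and then at 91.7, 99 and 73 CPM (0.36 ± 0.34). The 3 E7.5 null values lay inside the E6.5 null range for *Bcl2l11* and *Pmaip1*, and for *Bcl2l1* null 1 lay above it. Of the 79 further pathway genes tested, 0 passed in edgeR and 6 had an unadjusted p under 0.05, which is 7.59% against 8.13% of all genes. Markers moved otherwise than in WT. The 12 visceral endoderm markers had a median log2 fold change of -3.94 in null (10 at an unadjusted p under 0.05, 0 passed) and 0.82 in WT. For the 10 epiblast markers the median was 0.04 in null and -1.71 in WT. Their part in the 2 steps was not tested.

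**Figure D2:**
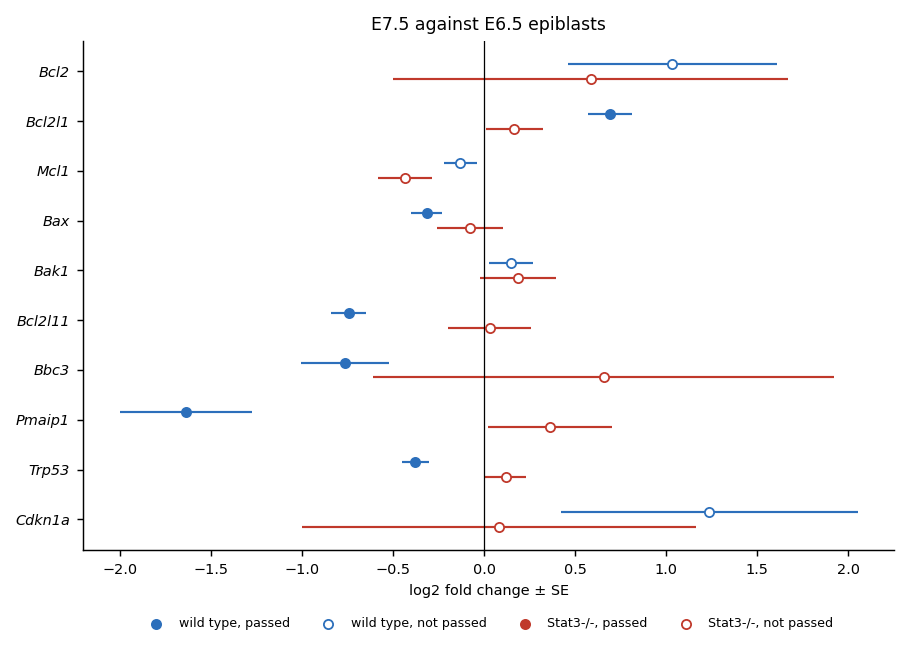
Log2 fold change with its SE (x axis) of each gene (y axis) from E6.5 to E7.5 in WT (blue) and *Stat3* null (red) epiblasts. Filled points passed an adjusted p under 0.05: 6 genes in WT and 0 in null.

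A pass in WT and none in null does not show that the steps differ, so the difference itself was tested as the genotype by stage term over the 29 libraries of E6.5 and E7.5. With all libraries, 0 of the 10 genes passed in edgeR (0.556% of 22122 genes did), 4 had an unadjusted p under 0.05, while DESeq2 passed 3 and voom passed 4. The term, positive where the null step was the more upward, was 0.49 ± 0.13, adjusted p = 0.0623 for *Trp53*, 0.77 ± 0.22, adjusted p = 0.0764 for *Bcl2l11*, 2.0 ± 0.56, adjusted p = 0.0811 for *Pmaip1* and -0.53 ± 0.20, adjusted p = 0.197 for *Bcl2l1*. DESeq2 called 4.35% and voom 13.4% of all genes they tested, and 14.1% of all genes had an unadjusted p under 0.05 in edgeR. The number of passes in edgeR moved with single libraries. Without E7.5 WT 3, 3.48% of all genes and 3 of the 10 passed: *Pmaip1* (2.34 ± 0.49, adjusted p = 0.00593), *Bcl2l11* (0.86 ± 0.20, adjusted p = 0.0121) and *Trp53* (0.52 ± 0.12, adjusted p = 0.0131). That library was singled out after seeing the data and lay at the extreme of its group for these genes, so these passes are no separate support. Leaving out E6.5 WT 3 gave 2 passes (3.01% of all genes), and leaving out E6.5 null 3 (0.272%) or E6.5 WT 1 (0.604%) gave 1 each. Of the 80 further pathway genes tested with all libraries, *Zmat3*, a p53 target that encodes an RNA-binding protein, passed (0.84 ± 0.19, adjusted p = 0.0441). Markers moved in the same term, though 0 passed in edgeR. All 10 epiblast markers (median 1.62) and all 12 visceral endoderm markers (median -5.03) had an unadjusted p under 0.05. So had 2 of 8 extraembryonic ectoderm markers (median -3.18). Their part in the terms of the 10 genes was not tested.

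At E7.5 null and WT epiblasts were compared directly. With all 9 WT libraries 0 of the 10 genes passed in edgeR, against 2.11% of 19680 genes, and 5 had an unadjusted p under 0.05. Without E7.5 WT 3, a setting chosen after seeing the data, 14.4% of all genes and those 5 genes passed. *Bcl2l1* and *Cdkn1a* were lower in null and *Bcl2l11*, *Pmaip1* and *Trp53* higher. For these genes WT 3 held the WT value nearest to, among or past the null values. Leaving it out therefore widens the differences, and these passes are no separate support. *Bcl2l1* lay at 44.9, 35.7 and 39.5 CPM in null and between 39.9 and 74.5 CPM (median 56.4) in WT. WT 3 at 39.9 CPM was the lowest of the WT libraries, and the other 8 lay above all 3 null. *Cdkn1a* lay at 1.32, 2.39 and 3.43 CPM in null and between 1.18 and 13.4 CPM (median 7.99) in WT, and again 8 WT libraries lay above all null and WT 3 below them. The opposite order was seen for 3 genes. *Bcl2l11* lay at 56.6, 52.1 and 43.6 CPM in null and between 34.1 and 58.3 CPM (median 37.5) in WT, with 8 WT libraries below all null and WT 3 above them.

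*Pmaip1* lay at 91.7, 99 and 73 CPM in null and between 10.1 and 82.2 CPM (median 18.9) in WT, with 8 WT libraries below all null and WT 3 among them. *Trp53* lay at 144, 159 and 129 CPM in null and between 96.2 and 141 CPM (median 125) in WT, with 7 WT libraries below all null. *Bbc3* lay at 6.21, 7.47 and 3.1 CPM in null and between 1.84 and 6.2 CPM (median 3.61) in WT, with overlap. For each of these 6 genes WT 3 held the WT value nearest to, among or past the null values, at the extreme of its group.

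**Figure D3:**
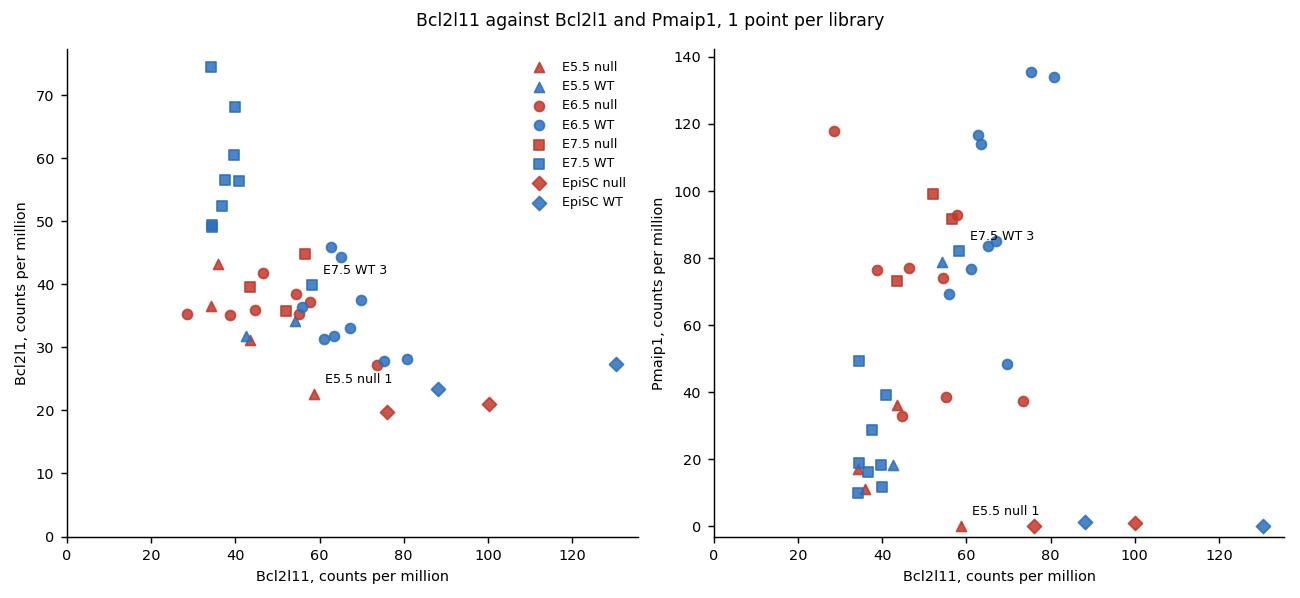
*Bcl2l11* (x axes) against *Bcl2l1* (y axis, left panel) and *Pmaip1* (y axis, right panel), all in CPM on linear axes, with 1 point for each of the 39 libraries, triangles for E5.5, circles for E6.5, squares for E7.5 and diamonds for EpiSC lines, red for null and blue for WT. The E7.5 WT squares stand at 34.1 to 40.8 CPM of *Bcl2l11* apart from E7.5 WT 3 at 58.3 CPM, which lies beside the E7.5 null squares.

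With all 9 WT libraries, the 5 genes under the unadjusted p were *Bcl2l1* (-0.47 ± 0.16, adjusted p = 0.104), *Cdkn1a* (-1.68 ± 0.58, adjusted p = 0.117), *Bcl2l11* (0.38 ± 0.15, adjusted p = 0.172), *Pmaip1* (1.54 ± 0.55, adjusted p = 0.147) and *Trp53* (0.30 ± 0.11, adjusted p = 0.141). DESeq2 passed 2 of them, *Bcl2l1* and *Cdkn1a*, and voom passed 6, these 5 and *Bbc3*. Of all genes they tested, DESeq2 called 10.9% and voom 17.8%, and 19.7% had an unadjusted p under 0.05 in edgeR. Without E7.5 WT 3 the values were -0.53 ± 0.13, adjusted p = 0.0138 for *Bcl2l1*, -1.83 ± 0.42, adjusted p = 0.00877 for *Cdkn1a*, 0.47 ± 0.10, adjusted p = 0.00669 for *Bcl2l11*, 1.88 ± 0.43, adjusted p = 0.0146 for *Pmaip1* and 0.33 ± 0.10, adjusted p = 0.034 for *Trp53*. *Mcl1* (-0.08 ± 0.09), *Bax* (0.07 ± 0.13), *Bak1* (-0.11 ± 0.13) and *Bcl2* (-0.15 ± 0.48) passed in neither edgeR fit. The null and WT libraries at E7.5 also differed in their markers. Epiblast markers summed to the values given above, and 12 visceral endoderm markers summed to 38.6 to 250.2 CPM in null and 396 to 4135 CPM in WT, the lowest in WT 3. Their part in these differences was not tested. Of the 79 further pathway genes tested, 0 passed in edgeR and 15 had an unadjusted p under 0.05, which is 19.0% against the 19.7% of all genes.

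**Figure D4:**
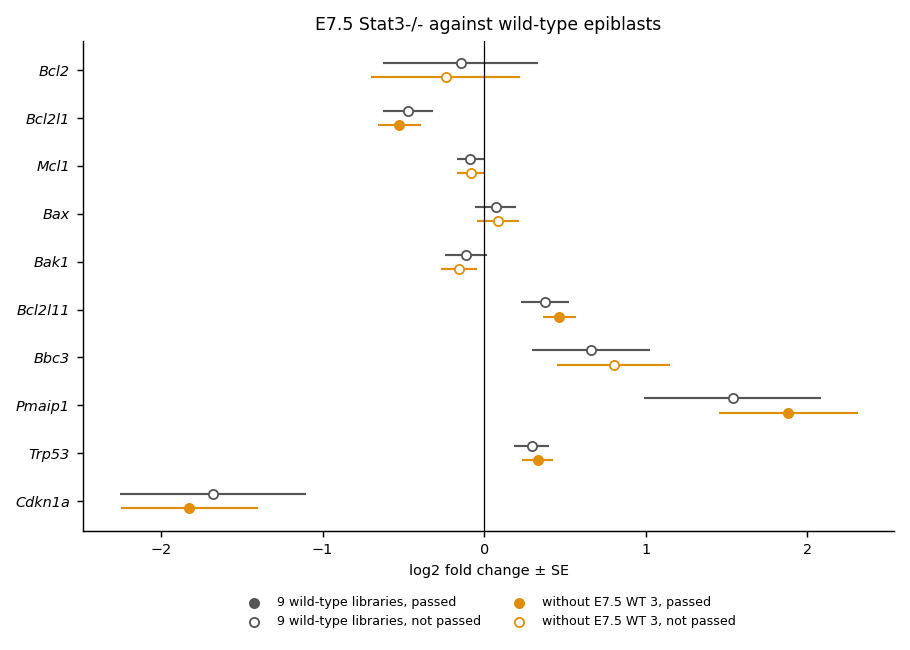
Log2 fold change with its SE (x axis) of each gene (y axis) in E7.5 *Stat3* null against WT epiblasts, with all 9 WT libraries (grey) and without E7.5 WT 3 (orange). Filled points passed an adjusted p under 0.05: 0 genes with all libraries and 5 without that library, a setting chosen after seeing the data.

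E7.5 null epiblasts were also set against E6.5 WT epiblasts, a comparison that shares libraries with those above. None of the 10 genes passed in edgeR (background 0.243%), 2 had an unadjusted p under 0.05, DESeq2 passed 1 (*Bcl2l11*, with 2.53% of all genes) and voom 0. The 2 were *Bcl2l11* (-0.39 ± 0.11, adjusted p = 0.228 by edgeR) and *Bax* (-0.26 ± 0.11, adjusted p = 0.472 by edgeR), both lower in E7.5 null. The 8 others ran from -0.46 to 0.87 on the log2 scale, with *Pmaip1* at -0.11 ± 0.25 and *Bcl2l1* at 0.19 ± 0.16. E6.5 null against E5.5 WT, with 2 WT libraries, passed 0 of the 10 genes in edgeR, DESeq2 and voom. In edgeR 0 of them had an unadjusted p under 0.05, and 0.182% of all genes passed. The shares for DESeq2 and voom are not given here.

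At E6.5, where the groups were largest, 0 of the 10 genes passed between null and WT in edgeR or DESeq2, and 1 (*Trp53*) in voom, which called 0.994% of all genes. Over all 17095 genes edgeR passed 0.0%, DESeq2 passed 80 genes, and 1414 genes had an unadjusted p under 0.05 in edgeR. Only *Bcl2l11* and *Trp53* of the 10 genes were under that p. *Bcl2l11* lay between 28.6 and 73.6 CPM (median 50.5) in null and between 55.9 and 80.9 CPM (median 65.1) in WT, with 6 of 8 null libraries below every WT library and null 3 at 73.6 CPM among the WT (-0.41 ± 0.14, adjusted p = 0.433 by edgeR). *Trp53* lay between 115 and 158 CPM (median 134) in null and between 128 and 171 CPM (median 159) in WT, with overlap (-0.21 ± 0.07, adjusted p = 0.433 by edgeR). Both genes had negative values here and positive ones at E7.5, and the genotype by stage term given above is the test of that difference. Markers differed in level too, with overlap, and 0 passed in edgeR. The visceral endoderm sum had a median of 833 CPM in null and 165 CPM in WT. The epiblast sum had a median of 4874 CPM in null and 6522 CPM in WT. The 5 extraembryonic ectoderm markers tested had a median log2 fold change of 3.19. Their part in the *Bcl2l11* and *Trp53* values was not tested.

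Of the others at E6.5, *Pmaip1* lay between 32.8 and 118 CPM (median 75.3) in null and between 48.3 and 135 CPM (median 85.1) in WT (-0.48 ± 0.25, adjusted p = 0.674). *Bbc3* lay between 0 and 8.16 CPM (median 3.87) in null, listed at 0 in null 2 and null 3, and between 4.29 and 8.94 CPM (median 6.4) in WT (-0.77 ± 0.75). *Bcl2l1*, between 27.2 and 41.8 CPM (median 35.6) in null and between 27.8 and 45.9 CPM (median 33.1) in WT, had the log2 fold change nearest to 0 of the 10 genes (0.03 ± 0.12). *Mcl1* split with depth in both genotypes: it lay at 225 to 272 CPM in the 3 null and 204 to 246 CPM in the 3 WT libraries over 40000000 counts, and at 166 to 201 and 143 to 189 CPM in the others. Within the libraries under 40000000 counts, and within those over it, 0 of the 10 genes passed. Of the 76 further pathway genes tested, 0 passed in edgeR and 8 had an unadjusted p under 0.05, which is 10.5% against 8.27% of all genes.

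At E5.5, with 4 null and 2 WT libraries, 0 of the 10 genes passed in edgeR, DESeq2 or voom. Over all 18690 genes edgeR passed 0.0%, DESeq2 passed 33 genes, and 467 had an unadjusted p under 0.05 in edgeR. *Cdkn1a* lay at 0.718, 5.89, 0.962 and 1.12 CPM in null and 14 and 7.74 CPM in WT, without overlap (-2.32 ± 0.92, adjusted p = 0.999 by edgeR). Permuting the libraries exactly gave p = 0.0667 (two-sided, on log2 CPM), and 4 against 2 libraries allow no smaller one. *Bbc3* lay at 2.9, 5.29, 4.98 and 4.31 CPM in null and 5.45 and 9.92 CPM in WT, also without overlap (-0.80 ± 0.48). *Pmaip1* lay at 0.248, 11.1, 17.2 and 36.3 CPM in null and 18.3 and 79 CPM in WT. Its lowest value was in null 1, the library nearly without *Pou5f1*, and the 2 WT libraries differed from each other by more than the group medians did. Of the 79 further pathway genes tested, 0 passed in edgeR and 4 had an unadjusted p under 0.05, which is 5.06% against 2.5% of all genes.

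From E5.5 to E6.5 *Trp53* was the one gene of the 10 to pass in each genotype. In WT it lay at 105 and 129 CPM at E5.5 and between 128 and 171 CPM (median 159) at E6.5, with 8 of 9 E6.5 libraries above both (0.44 ± 0.12, adjusted p = 0.0414, background 9.24%). In null it lay at 108, 86.5, 101 and 93.4 CPM at E5.5 and between 115 and 158 CPM (median 134) at E6.5, without overlap (0.43 ± 0.11, adjusted p = 0.0413, background 3.77%). Both calls lay close to the threshold. The WT call was lost on leaving out any 1 of 9 of its 11 libraries (all but E6.5 WT 1 and WT 3), and the null call on leaving out any 1 of 7 of its 12 (E5.5 null 2, 3 and 4 and E6.5 null 5 to 8). Both were lost with DESeq2's size factors in edgeR, at adjusted p = 0.0665 in WT and adjusted p = 0.0501 in null. In the edgeR fit with the replicate block they were at adjusted p = 0.605 in WT and adjusted p = 0.501 in null. That fit spends a term on each replicate number and leaves little to measure the spread. It therefore cannot tell how firm the calls are.

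*Pmaip1* in null lay at the E5.5 values given above and between 32.8 and 118 CPM (median 75.3) at E6.5, where 7 of 8 libraries lay above every E5.5 null library (2.05 ± 0.81, adjusted p = 0.191). Without E5.5 null 1 and E6.5 null 1, the libraries that stand apart in their markers, it passed (1.78 ± 0.43, adjusted p = 0.0252). This setting was chosen after seeing the data, and the share of all genes that passed rose with it, as given in the last section. E5.5 null 1 also held the lowest *Pmaip1* value of its group, so this pass is no separate support. In WT, *Bcl2l11* lay at 42.6 and 54.2 CPM at E5.5, below all 9 E6.5 libraries (0.48 ± 0.15, adjusted p = 0.0527), and *Mcl1* at 218 and 259 CPM (-0.35 ± 0.16, adjusted p = 0.201). Neither passed. *Cdkn1a* lay at 14 and 7.74 CPM in the E5.5 WT libraries and did not pass against E6.5 (-1.71 ± 1.46, adjusted p = 0.545), E6.5 WT 3 again being the only one of the 9 not below both. The visceral endoderm sum was 5740.0 to 7031 CPM at E5.5 in WT and 5804 CPM in E6.5 WT 3, against 52.4 to 1616 CPM in the other E6.5 WT libraries. Its part in the *Cdkn1a* values was not tested.

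Among the further pathway genes, 3 of 80 rose and 3 fell in WT from E5.5 to E6.5, and 3 of 79 rose in null. These shares, 7.5% and 3.8%, stand against 9.24% and 3.77% of all genes. The kinase gene *Atm*, which acts on p53 after DNA breaks, rose in WT (0.55 ± 0.11, adjusted p = 0.00992) and in null (0.70 ± 0.13, adjusted p = 0.00854). *Trp53bp1* rose in WT (0.64 ± 0.17, adjusted p = 0.0346) and in null (0.56 ± 0.14, adjusted p = 0.0372). *Parp1*, a sensor of DNA breaks, rose in WT (0.36 ± 0.09, adjusted p = 0.0241). The genes that fell in WT are listed as p53 targets: *Ak1* (-1.93 ± 0.32, adjusted p = 0.00354), *Trp53inp1* (-2.01 ± 0.50, adjusted p = 0.0249) and *Sfn* (-1.57 ± 0.45, adjusted p = 0.0416). Markers moved in the same comparisons. In WT 6 of 10 epiblast markers rose, 1 of 12 visceral endoderm and 2 of 8 extraembryonic ectoderm markers fell, and the visceral endoderm sum had a median of 6386 CPM at E5.5 and 165 CPM at E6.5. In null 2 of 10 epiblast markers rose and 0 of the others passed, with a median visceral endoderm sum of 8507 CPM at E5.5 and 833 CPM at E6.5. At E5.5 in WT, *Ak1* lay at 11.9 to 39.5 CPM, *Sfn* at 14.1 to 56.8 and *Trp53inp1* at 42.1 to 65.7. The part of these markers in the values of *Trp53* and of the further genes named here, those that fell included, was not tested. Nor was the difference between genotypes for this step.

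In EpiSC lines 0 of the 10 genes passed between null and WT in edgeR, DESeq2 or voom. In edgeR 0.13% of all genes passed, and the shares for DESeq2 and voom are not given here. Of the 10 genes, 3 had an unadjusted p under 0.05 in edgeR. *Bcl2* lay at 14.8 and 11.9 CPM in the null lines and 16.8 and 24.2 CPM in the WT lines (-0.61 ± 0.21, adjusted p = 0.44 by edgeR). *Bcl2l1* lay at 19.8 and 21.1 CPM in null and 23.4 and 27.4 CPM in WT (-0.32 ± 0.11, adjusted p = 0.474 by edgeR). *Cdkn1a*, at the values given above, was at -0.39 ± 0.15 (adjusted p = 0.53 by edgeR). Each of these genes lay lower in both null lines than in both WT lines, an order for which the smallest exact permutation p is 0.333. The other 7 genes ran from -0.31 to 0.03 on the log2 scale, with *Trp53* at 239.8 and 274 CPM in null and 263 and 303 CPM in WT. In the EpiSC libraries 12 visceral endoderm markers summed to at most 2.89 CPM. Of the 81 further pathway genes tested, 0 passed in edgeR and 10 had an unadjusted p under 0.05, which is 12.3% against 9.09% of all genes.

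Across the 34 epiblast libraries other than E5.5 null 1, the 10 genes varied together to different degrees, as a description in which the libraries share stage, dissection and depth. *Bcl2l11* ran with *Trp53* (Spearman rho 0.76) and *Pmaip1* ran with *Bcl2l11* (0.62) and *Trp53* (0.62), while *Bcl2l1* ran against *Bcl2l11* (-0.52) and *Pmaip1* (-0.44). Of 14179 genes with a mean count of at least 50, the one most like each by Spearman rho over the same libraries was *Rif1* for *Pmaip1* (0.90), *Snrpn* for *Trp53* (0.88), *Sept2* for *Mcl1* (0.87), *Nav2* for *Bcl2l11* (0.85) and *Dlx5* for *Bcl2l1* (0.80). For the other genes it was *Gstt2* for *Bbc3* (0.79), *Nfatc2ip* for *Bax* (0.77), *H3f3b* for *Bak1* (0.77), *Sp5* for *Bcl2* (0.73) and *Vmac* for *Cdkn1a* (0.69). Per length, the log2 ratio of *Bcl2l1* to *Bcl2l11* lay between -0.71 and 0.36 in E6.5 WT, 0.26 and 0.67 in E7.5 null and 0.26 and 1.93 in E7.5 WT (median 1.33), the lowest of the last being WT 3. In EpiSC lines it lay between -1.44 and -1.11.

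By position on GRCm38 (GENCODE vM21), the 10 genes lie on 7 chromosomes. *Bcl2l1* at chr2:152780668-152831728 (- strand) and *Bcl2l11* at chr2:128126038-128162547 (+ strand) share one. So do *Bax* and *Bbc3* on chromosome 7, and *Bak1* and *Cdkn1a* on chromosome 17. *Trp53* lies at chr11:69580359-69591873 (+ strand) and *Cdkn1a* at chr17:29090976-29100727 (+ strand). None has a near-identical copy among annotated transcripts (95% identity over at least 50% of a transcript). *Bcl2*, *Bak1* and *Cdkn1a* overlap an annotated gene on the opposite strand and *Bax* and *Bcl2* one on the same strand, so part of their counts could belong to the neighbour, since the strand setting of the counting is not given in the sources used here.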

How the data were processed

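RNA-seq counts per gene were deposited by the authors in 2 tables, one of 35 epiblast libraries and one of 4 EpiSC libraries. Per the labels and the submitters' processing notes, the authors trimmed reads with Trim Galore, aligned them with HISAT2 to GRCm38 and quantified genes with StringTie. The epiblast libraries were made with a SMARTer stranded total RNA kit, which amplifies small inputs, and the EpiSC libraries with rRNA removal and a NEBNext Ultra II kit. StringTie can list a gene at 0 where reads were not assembled to it, so such values are given as listed at 0.

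Groups follow the labels' stage and genotype. Counts as deposited were tested in R 4.3.3 with edgeR 4.0.16 (TMM scaling, filterByExpr by group with a minimum count of 10 and a minimum total of 15, robust quasi-likelihood fits, F tests, Benjamini-Hochberg adjustment over all genes tested). Each comparison was fitted on the libraries of its own groups. SE is the size of the log2 fold change divided by the square root of F. Log2 CPM has a prior count of 2. Alternatives were DESeq2 1.42.0, limma 3.58.1 voom with sample quality weights, other scalings and filters, a replicate block, 1 fit over all 35 epiblast libraries and leaving out libraries. The test scripts were tested on simulated counts. The labels do not say that replicate numbers pair the samples, and deviations of same-numbered libraries correlated between -0.29 and 0.24 (22 pairs). Between genotypes, 2 of 2 pairs at E5.5, 2 of 8 at E6.5 and 0 of 3 at E7.5 matched best with their own number. Such correlations cannot tell whether libraries shared a litter or a batch. No pair of libraries held identical values. Library totals are counts of reads without molecular identifiers, and few counts limit *Bcl2*, *Bbc3* and *Cdkn1a* in particular.

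Promoter windows are RefSeq's on GRCm38.p6, and coordinates and exonic lengths are from GENCODE vM21, matched on gene IDs without version. The 10 genes and the 5 pathway lists (86 genes) were chosen with earlier results of these data known. The genes named outside the 10 are the 3 of the lists with the smallest p in each direction among those that passed, and for each of the 10 genes the gene most like it by Spearman rho. 1 gene that this rule names is not reported here.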

Additional observations from a re-analysis of the deposited data

Results flagged for a closer look

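The sets tested were 40, each of them 1 gene in 1 group of 4 to 10 libraries. Of these, 7 held a library that stood apart on the log2 CPM scale (a gap to the next library that was large against the whole range). Chance flags about 1 in 20 sets. The sets share libraries and are not independent, so the 7 cannot be weighed against that share. A library with 0 counts of a gene stands at -4.19, the value that the prior count gives. In E7.5 WT 3, *Bcl2l11* stood high at 5.87 against 5.10 to 5.35 in the other 8 E7.5 WT libraries, and *Cdkn1a* stood low at 0.31 against 2.05 to 3.75. This is the library whose epiblast markers summed to 6246 CPM.

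In E6.5 null 3, *Bcl2l1* stood low at 4.77 against 5.14 to 5.39 in the other 7 E6.5 null libraries, *Bax* stood low at 4.59 against 5.20 to 5.55, and *Cdkn1a* was listed at 0 counts (-4.19 against 0.46 to 2.56). *Bcl2* was listed at 0 counts in E5.5 null 1 (-4.19 against 1.37 to 2.43), the library with 0.662 CPM of *Pou5f1*, and in E6.5 WT 2 (-4.19 against -0.32 to 1.89). The cause of these values was not tested.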

How the results depend on the processing

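Of the 29 log2 fold changes of the 10 genes with an unadjusted p under 0.05, 0 changed sign under an alternative. Of the other 81, which did not pass, 41 did in at least 1, so their directions are not given as results. The first group was picked by its p and refitted on largely the same libraries, so its steady sign is no separate support. With the differences of log2 CPM counted, the first group made 54 values and 701 comparisons, of which 27 lost a pass, 40 gained one and 634 kept their side of the threshold. Counts of the 10 genes that passed moved as follows, and the share of all genes that passed moved with them. E7.5 null against WT passed 0 in edgeR, 2 in DESeq2 and 6 in voom, and 0 to 5 on leaving out 1 library, the 5 without E7.5 WT 3. E6.5 null against WT passed 1 in voom. WT E7.5 against E6.5 passed 6, with 5 to 6 on leaving out 1 library and 1 with a log2 fold change over 1. In the fit of all 35 libraries *Bbc3* and *Bax* lost their pass, and of 28 alternatives *Cdkn1a* passed in 2 and *Bak1* in 1. WT E6.5 against E5.5 passed 1, then 0 with a log2 fold change over 1, with DESeq2's size factors in edgeR, with no filter, with a mean count of at least 50, without genes over 1% of counts and with the replicate block, 2 in DESeq2 (18.2% of all genes) and in voom (16.6%), 4 without the E6.5 libraries over 40000000 counts (chosen after seeing the data; 25.5% of all genes against 9.24%) and 0 to 3 on leaving out 1 library. Null E6.5 against E5.5 passed 1, then 0 with a log2 fold change over 1, with DESeq2's size factors, with no filter and with the replicate block. It passed 2 in DESeq2 (10.3% of all genes against 3.77%), in voom (19.3%) and in the fit of all 35 libraries (11.6%). It also passed 2 without the E6.5 libraries over 40000000 counts (13.8%) and without E5.5 null 1 and E6.5 null 1 (7.42%). Those exclusions were chosen after seeing the data. On leaving out 1 library it passed 0 to 1. E7.5 null against E6.5 WT passed 1 in DESeq2. The genotype by stage term passed 0, then 3 in DESeq2, 1 with a mean count of at least 50, 4 in voom, 2 without the E6.5 libraries over 40000000 counts (6.54% of all genes against 0.556%) and 0 to 3 on leaving out 1 library. The causes were not tested.

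With the replicate block, the other comparisons it was run for kept their counts (WT E7.5 against E6.5 6, the rest 0). Where groups share few replicate numbers, the block leaves little to measure the spread, so a pass lost there says little. The block was not run for EpiSC lines, which share no replicate number, or for the genotype by stage term. By Pearson's r the gene most like each of the 10 was the same as by Spearman's rho for 4 of them. Exact two-sided permutation tests of log2 CPM, 100 in all, gave an unadjusted p under 0.05 for 4 of the 10 genes at E6.5 and 5 at E7.5 between genotypes. No share over all genes stands beside these counts, so they are not read as a result about the 10 genes. At E6.5 the 4 were *Bcl2l11*, *Trp53*, *Bax* (permutation p = 0.032) and *Bbc3* (permutation p = 0.0113). *Bax* and *Bbc3* were not under 0.05 in edgeR. *Bbc3* was listed at 0 in 2 E6.5 null libraries, whose log2 CPM is set by the prior count. E5.5 WT and EpiSC groups of 2 libraries and low counts of *Bcl2*, *Bbc3* and *Cdkn1a* limit the precision.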
